A study of Mus musculus with 25 samples.

Results

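DNA methylation in the mammary fat pad was compared between 15 mice that had lost weight on 1 of 4 diets, pooled, and 5 mice kept on a control diet. These 20 libraries, of 25 in the series, were chosen by their labelled treatment and mouse number. The LFD library of mouse 46 was left out by the same rule, and the 4 Obese libraries belong to neither side. All mice were C57BL/6N with the genotype given as wt. The Control mice (n = 5; mice 1, 2, 5, 10 and 13) received the control diet D12450J throughout. The other mice were first made obese on a 60% high-fat diet (D12492) and were then randomized again. In 3 of them (LFD; mice 42, 47 and 48) weight loss came from low-fat food without a limit on intake. In 4 (LFCR; mice 63, 67, 69 and 72) low-fat food was combined with a 30% cut in calories, and in 3 (MCR; mice 85, 95 and 96) the same cut was applied to food of Mediterranean style. The remaining 5 (ICR; mice 102, 103, 105, 106 and 112) were restricted intermittently. At week 25 every mouse, Control included, received E0771 mammary cancer cells in the fat pad of 1 side, and the pad analysed here is the one opposite, which was not injected. The labels name that tissue as normal although the sample titles hold the word tumor and the labels also list the E0771 line. Every weight-loss mouse had been obese and no Control mouse had, so the earlier obesity and the diet that followed cannot be told apart in this comparison. Each library is 1 mouse number, and the labels give no litter, cage or sequencing batch. Words such as fell, rose, loss and gain therefore stand for differences between weight-loss and Control mice, not for changes followed in a mouse.

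Methylation is a methyl group on the cytosine of a CpG, placed by the Dnmt enzymes and removed through the Tet enzymes or by loss at cell division. Unmethylated CpG-rich stretches, the CpG islands, mark many gene starts, while CpGs between islands are mostly methylated in adult tissue, and a change at a start or in a gene body can go with a change in the gene's use. The mammary fat pad holds adipocytes, ducts of luminal and basal epithelium, fibroblasts, vessels and leukocytes, and each cell type carries its own pattern. In such bulk DNA, a shift in the mix of cells and a change of methylation within cells cannot be told apart.

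Reduced representation bisulfite sequencing (RRBS) reads short CpG-rich fragments cut by the enzyme MspI, here of 40 to 170 bp. Of the 283974 CpGs in the table, 161750 on chromosomes 1 to 19 had an average coverage of at least 10 reads and a value in at least 12 weight-loss and 4 Control libraries (56.96%), and 94040 had a value in all 20. The authors' average coverage of the tested CpGs had a median of 46.8 reads (25th to 75th percentile 30.2 to 76.7), and the depth of single libraries is unknown. At 18899 CpGs under 5% methylation in Control, the 20 libraries lay between 1.09 and 1.73%. LFD 46 and 3 of the 4 Obese libraries (mice 27, 28 and 40) stood apart there at 49.9 to 50.6%, and Obese mouse 22, at 1.56%, did not. That mouse therefore serves below as a single value from an animal that stayed obese. The promoters of the adipocyte regulator Cebpa and of the lipid droplet gene Plin1 stood at 1.99 and 1.37% and 84.8 and 79.6% in Control and weight-loss libraries, with limma adjusted p of 0.156 and 0.311, and neither level by itself identifies the tissue.

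Gene starts at which neighbouring CpGs moved together in all 4 diets are shown first. RefSeq (GRCm38.p6, the mm10 assembly) gives the 250 bases before a gene's start, and 299 such windows of 277 genes held at least 3 tested CpGs. All 5026 of 5026 tested positions inside RefSeq promoter windows began a CG, so the coordinates of the table and of RefSeq match. At least 3 CpGs were called lower and none higher in 31 of the 299 windows, and the reverse held in 5. Of all tested CpGs 11.2% were called lower and 1.82% higher, so losses outnumbered gains over all CpGs as well. The 4 lower and 3 higher windows of largest difference that overlap a region changed in all 4 diets are printed, with that of Pik3cd as a member of the insulin signalling list. Each is the 250 bases before the start, 5′ to 3′ on the strand of the gene, and capitals mark the CpGs that were measured. The windows are those of 3930402G23Rik (chr8:10928458-10928707, minus strand), Lmna (chr3:88493313-88493562, minus strand), Stpg1 (chr4:135495737-135495986, plus strand), Angptl8 (chr9:21835260-21835509, plus strand), Arhgap27os3 (chr11:103344503-103344752, plus strand), Rps6ka1 (chr4:133873036-133873285, minus strand), Gp1bb (chr16:18622404-18622653, minus strand) and Pik3cd (chr4:149676090-149676339, minus strand).
3930402G23Rik: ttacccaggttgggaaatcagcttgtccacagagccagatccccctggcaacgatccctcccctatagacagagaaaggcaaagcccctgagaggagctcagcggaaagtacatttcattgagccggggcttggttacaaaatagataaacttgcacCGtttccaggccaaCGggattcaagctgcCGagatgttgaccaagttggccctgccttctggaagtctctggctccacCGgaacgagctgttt
Lmna: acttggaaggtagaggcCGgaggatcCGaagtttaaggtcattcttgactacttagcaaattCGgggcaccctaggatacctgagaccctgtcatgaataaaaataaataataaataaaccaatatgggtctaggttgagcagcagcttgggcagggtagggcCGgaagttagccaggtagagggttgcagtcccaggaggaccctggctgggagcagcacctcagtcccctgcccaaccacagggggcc
Stpg1: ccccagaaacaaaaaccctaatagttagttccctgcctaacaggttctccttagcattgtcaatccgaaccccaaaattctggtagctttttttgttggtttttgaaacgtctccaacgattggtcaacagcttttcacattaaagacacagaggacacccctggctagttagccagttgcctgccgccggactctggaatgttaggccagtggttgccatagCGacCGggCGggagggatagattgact
Angptl8: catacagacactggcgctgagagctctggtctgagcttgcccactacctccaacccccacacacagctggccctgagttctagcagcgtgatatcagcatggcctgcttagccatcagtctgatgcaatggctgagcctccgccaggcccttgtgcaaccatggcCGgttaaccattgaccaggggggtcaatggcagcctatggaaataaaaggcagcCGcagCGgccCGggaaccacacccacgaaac
Arhgap27os3: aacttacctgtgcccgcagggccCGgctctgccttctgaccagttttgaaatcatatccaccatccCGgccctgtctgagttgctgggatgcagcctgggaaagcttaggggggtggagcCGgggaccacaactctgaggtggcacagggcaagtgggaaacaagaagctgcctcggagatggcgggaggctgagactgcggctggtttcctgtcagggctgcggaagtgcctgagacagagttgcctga
Rps6ka1: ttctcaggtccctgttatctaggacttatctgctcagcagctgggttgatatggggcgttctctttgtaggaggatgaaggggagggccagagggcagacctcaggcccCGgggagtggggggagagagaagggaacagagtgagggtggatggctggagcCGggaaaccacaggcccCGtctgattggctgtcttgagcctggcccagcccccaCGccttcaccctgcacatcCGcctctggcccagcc
Gp1bb: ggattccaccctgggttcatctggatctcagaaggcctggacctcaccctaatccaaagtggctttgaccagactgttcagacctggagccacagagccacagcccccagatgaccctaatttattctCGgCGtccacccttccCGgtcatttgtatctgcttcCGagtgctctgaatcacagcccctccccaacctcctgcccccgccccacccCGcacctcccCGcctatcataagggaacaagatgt
Pik3cd: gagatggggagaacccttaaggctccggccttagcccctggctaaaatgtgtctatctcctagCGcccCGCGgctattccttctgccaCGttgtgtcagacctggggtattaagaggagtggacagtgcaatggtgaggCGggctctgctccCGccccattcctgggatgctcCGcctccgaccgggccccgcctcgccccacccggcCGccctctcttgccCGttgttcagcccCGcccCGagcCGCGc

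Angptl8 encodes a hormone of liver and fat that restrains lipoprotein lipase. The mean level of its 4 measured CpGs was 87.7, 89.4, 78.7, 73 and 91.4% in Control mice 1, 2, 5, 10 and 13, the order used for Control values throughout. The lowest, the median and the highest of the 15 weight-loss libraries were 47.4, 67.1 and 74.5%. The ranges overlapped only at the edge, and the group means were 84.04% ± 7.86 (SD, n = 5) and 62.5% ± 9.61 (SD, n = 15). At the 4 CpGs before the start of Lmna, the gene of the nuclear lamins A and C, Control stood at 43.3, 53.7, 44.3, 37.8 and 43.7% and the weight-loss libraries at 3.72, 19.9 and 41.1%. The MCR mean there was 5.46% ± 2.69 (SD, n = 3). Pik3cd encodes the p110 delta catalytic subunit of PI3-kinase, prominent in leukocytes. Its 13 measured CpGs were at 24.1, 15.6, 19.6 and 19.1% in Control mice 2, 5, 10 and 13 and at 0.275, 9.70 and 16.98% in the weight-loss libraries, with 6 of the 13 called lower and none higher. The window of 3930402G23Rik stood at 75.9% ± 15.1 (SD, n = 5) and 48.1% ± 11.9 (SD, n = 15) and that of Stpg1, a sperm tail gene, at 60.3% ± 6.65 (SD, n = 5) and 38.8% ± 11.8 (SD, n = 14). The Lmna region, which holds 3 of the 4 CpGs of its window, differed by -28.2 points (SE 5.94, limma adjusted p = 0.0119). The region that holds the 4 Angptl8 CpGs differed by -21.6 points (SE 4.51, limma adjusted p = 0.0119). The start used for these windows is that of RefSeq. The authors' annotation puts the Lmna region in the gene body, and the Angptl8 region in a body and the Gp1bb region in a 3′UTR, both with no gene named.

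In the opposite direction, Rps6ka1, the gene of the RSK1 kinase downstream of ERK, had 14.3, 10.8, 24.7, 27.3 and 22.6% in Control over 5 CpGs. Its weight-loss libraries ranged over 24.8, 43.2 and 56.8%, so the groups met only at their edges, and 4 of the 5 CpGs were called higher. Arhgap27os3, a transcript next to Arhgap27, stood at 24.5% ± 6.98 (SD, n = 5) and 49.9% ± 11.97 (SD, n = 15), and its region differed by 25.5 points (SE 5.36, limma adjusted p = 0.0119). At Gp1bb, the gene of a platelet surface receptor subunit, the levels were 43.1% ± 6.34 (SD, n = 5) and 53.5% ± 6.11 (SD, n = 15) and the groups overlapped. The region holding the Gp1bb CpGs differed by 10.4 points (SE 3.09, limma adjusted p = 0.0186), and this call was lost without Control 1, at 8.12 points and adjusted p = 0.0653, and without Control 2, at 9.49 points and adjusted p = 0.0699.

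Across the genome, methylation was lower after weight loss. The mean over the 94040 CpGs was 56.7, 58.5, 55.9, 54.2 and 56.3% in the Control mice. The LFD mice stood at 48.5, 54.8 and 52.6%, the LFCR mice at 46.7, 47.2, 52.3 and 54.6%, the MCR mice at 46.9, 46.6 and 47.3% and the ICR mice at 52.9, 50.96, 53.7, 53.9 and 54.9%. All 3 MCR mice, LFCR mice 63 and 67 and LFD mouse 42 lay between 46.6 and 48.5%, and the other 9 weight-loss mice lay between 51.0 and 54.9%, so LFCR and LFD each held mice of both kinds. Below the lowest Control mouse were 12 of the 15 weight-loss mice. The group means were 56.3% ± 1.54 (SD, n = 5) and 50.9% ± 3.33 (SD, n = 15), a difference of -5.41 percentage points (exact permutation test over 15504 assignments, two-sided, p = 0.00264, smallest possible 6.45e-05). The diet means differed from Control by -4.38 (LFD), -6.13 (LFCR), -9.37 (MCR) and -3.07 points (ICR). Obese mouse 22 was at 54.7%, inside the Control range. The permutation test takes single mice as its units, and the spread of the weight-loss group includes the differences between its 4 diets.

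In CpG islands, the least methylated class, all 15 weight-loss libraries lay below all 5 Control libraries, at 19.3 to 24.8% against 25.04 to 27.8%. Island means were 26.1% ± 1.10 (SD, n = 5) and 22.4% ± 2.14 (SD, n = 15), a difference of -3.70 points. The differences were -5.02 points in shores, which flank islands, -6.40 in shelves, which flank shores, and -6.09 in the open sea beyond. The exact permutation tests of the 4 contexts each gave an adjusted p of 0.00284. Sorted by the level in Obese mouse 22, a library outside the comparison, the loss was largest at intermediate CpGs. It was -0.735 points at CpGs under 20% in that mouse, -3.43 at 20 to 40%, -9.70 at 40 to 60%, -9.45 at 60 to 80% and -5.05 at 80% and over. At 40 to 60% the MCR mean fell by 16.3 points and the ICR mean fell by 5.84. Sorting by this level was chosen after seeing the data.

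**Figure D1:**
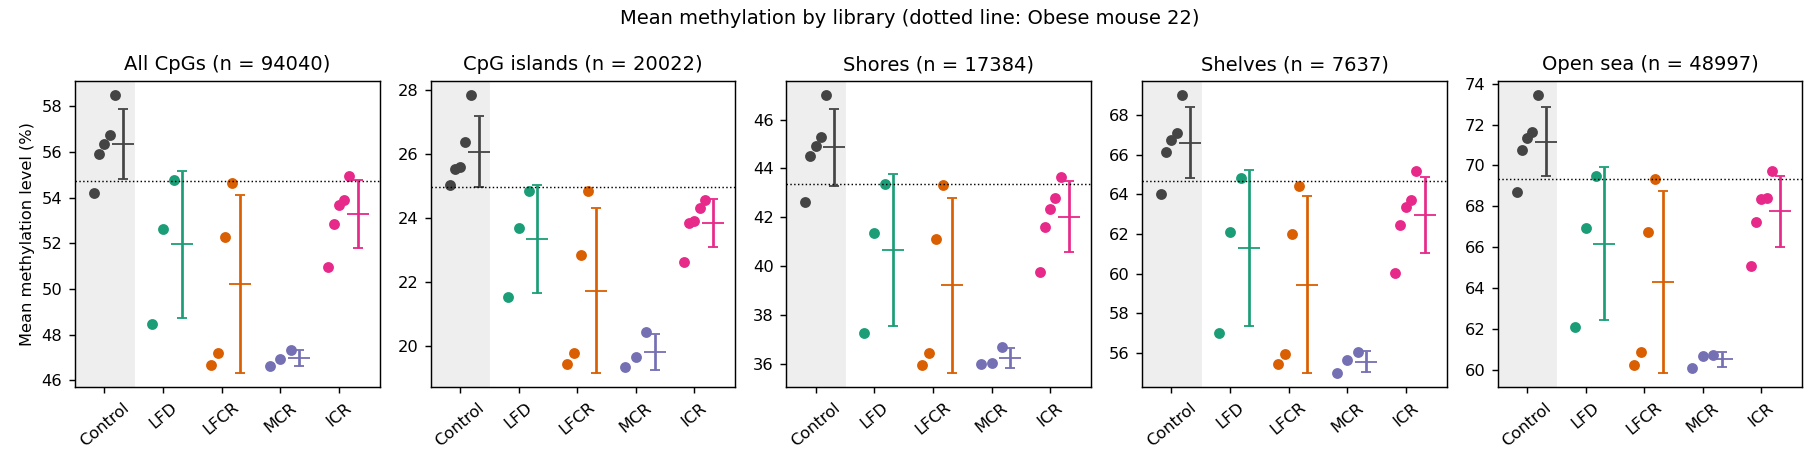
Mean methylation level in percent of each library (points), by group, with group mean and SD beside the points, over all CpGs measured in all 20 libraries and by CpG context. The dotted line is Obese mouse 22, and the axes do not start at 0. The MCR points lie lowest and close together at 46.6 to 47.3% over all CpGs, and in islands no weight-loss point reaches the Control points.

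Single CpGs, regions and promoters were then tested with limma on the level in percent, all 15 weight-loss libraries as 1 group. A region is a run of at least 3 tested CpGs with gaps of at most 100 bp, and there were 18742, with a median of 4 CpGs and 105 bp. A promoter is the set of at least 3 CpGs that the authors annotate upstream of the start, in the 5′UTR or in the 1st exon of a gene, and 3050 genes had one. The CpGs of 1 promoter can lie far apart, as at Acacb (chr5:114146552-114176061) and Cx3cr1 (chr9:120017294-120051392). Lower after weight loss were 18092 CpGs (11.2% of those tested), 5994 regions (32%) and 777 promoters (25.5%). Higher were 2938 CpGs (1.82%), 887 regions (4.73%) and 90 promoters (2.95%), all at a limma adjusted p under 0.05. The median over all regions was -4.94 points and over all promoters -2.11 points.

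The share of lower calls changed with the scaling of the libraries. Lower calls made up 86.0% of called CpGs and 87.1% of called regions as the levels stand. After quantile normalization, which gives every library the same distribution, they made up 49.1% of 7417 CpGs and 48.1% of 3316 regions. With each library's own mean as a covariate no CpG, region or promoter was called by limma, and 7864 CpGs, 893 regions and 124 promoters had an unadjusted p under 0.05. The calls also rest on Control mouse 2, the Control library with the highest mean. Without it limma called 0 CpGs, 0 regions and 0 promoters, the smallest adjusted p being 0.0549 for regions, while 38200 CpGs, 7050 regions and 986 promoters had an unadjusted p under 0.05. The genome-wide difference was then -4.87 points with an exact permutation p of 0.00722. Without Control 1, 468 CpGs, 4220 regions and 449 promoters were called, without Control 13 they were 4053, 4167 and 463, and without Control 5 10098 CpGs were called. Every call below carries these limits.

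In 4349 regions (23.2% of those tested) the pooled test was passed and each diet mean was at least 5 points below Control, and in 649 (3.46%) each was at least 5 points above. These are 72.6% of the regions called lower and 73.2% of those called higher, and the 4 differences use the same 5 Control libraries. At promoters, 392 (12.9%) were lower and 50 (1.64%) higher in this way, 50.5% of those called lower and 55.6% of those called higher. Without the MCR mice 2891 CpGs were called rather than 21030. In the median lower region Control stood at 72.9%, with differences of -11.8 (LFD), -15.8 (LFCR), -23.3 (MCR) and -8.90 points (ICR). In the median higher region Control stood at 34.1%, with differences of 11.9, 13.7, 20.4 and 9.07 points in the same order. MCR showed the largest change in 4090 of the 4349 lower and 586 of the 649 higher regions, and ICR the smallest in 3323 and 472. Under quantile normalization, 2560 regions were common to the diets, 1182 lower and 1378 higher, and without Control 2 there were none, as no region was called.

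Regions of intermediate level were the most often changed in all diets. Of 2312 regions at 40 to 60% in Obese mouse 22, 40.1% were lower and 7.87% higher in every diet. Below 20% the shares were 7.77 and 3.58%, and at 80% and over 11.9 and 0.243%. By context, islands had 16.2% lower and 1.91% higher, and shelves 26.9 and 4.20%. Regions with upstream, 5′UTR or 1st exon CpGs (21.9% lower, 3.67% higher) lay close to regions in gene bodies and 3′UTRs only (23.5 and 3.43%). Obese mouse 22 lay below all Control libraries in 38.8% of the commonly lower regions, against 23.9% of all regions. It lay above all Control libraries in 36.1% of the commonly higher regions, against 10.5% of all. In the remaining share it lay mostly within the Control range, in 59.6 and 61.9%. The common regions were chosen by their difference from the same Control libraries. A Control level that is high or low there by accident would raise these shares too. The shares therefore cannot show whether Obese mouse 22 had the change seen in the diets. A single Obese mouse also gives no spread, and no test was made.

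**Figure D2:**
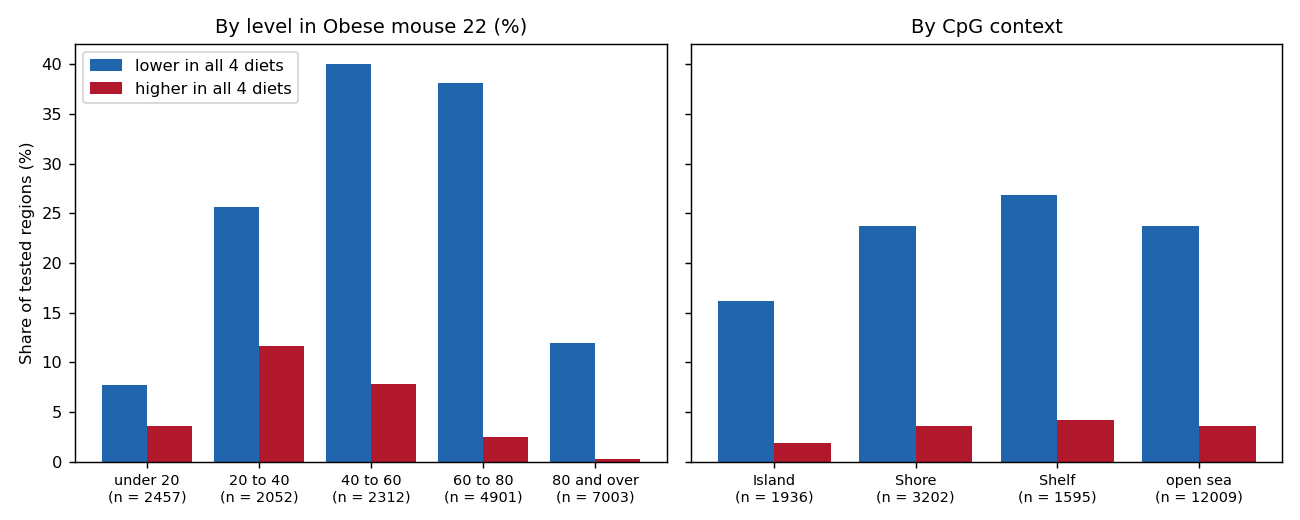
Share of tested regions in percent that were lower (blue) or higher (red) in all 4 diets, by the level of the region in Obese mouse 22 (left) and by CpG context (right), with the number of tested regions under each pair of bars. Lower regions peak at 40.1% in the 40 to 60% bin, and higher regions at 11.7% in the 20 to 40% bin.

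A stricter view asks where not 1 weight-loss library overlapped Control. This held for 398 regions with all weight-loss libraries lower (2.12% of regions) and for 35 with all higher (0.187%), and 306 and 29 of these had a value in all 20 libraries. The regions described here, the widest gaps among them, were chosen after their values were seen. At a gene body region of Bahcc1, which encodes a chromatin protein with a BAH domain (chr11:120243241-120243270, 3 CpGs, average coverage 39.3 reads), Control stood at 79.4, 87.2, 76.98, 79.04 and 84.2%. The weight-loss libraries had 30.5, 52.8 and 64.2% as lowest, median and highest, a gap of 12.8 points to Control. The mean difference was -31.6 points (SE 4.66, limma adjusted p = 0.0119). At Pik3c2b, a class II PI3-kinase (chr1:133076930-133076980), Control stood at 69.99, 64.7, 56, 62.2 and 59.5% and the weight-loss libraries at 13.7, 37.2 and 48.5%, a difference of -29.1 points (SE 6.03, limma adjusted p = 0.0119). At Ccdc88b, a gene of a Hook-related protein of leukocytes (chr19:6847943-6848339, 24 CpGs), Control stood at 60.4, 67.6, 51.5, 46.97 and 54.2% and the weight-loss libraries at 6.01, 32.3 and 41.97%. The diets differed from Control there by -28.6 (LFD), -33.2 (LFCR), -47.4 (MCR) and -19.4 points (ICR), so the ICR mean was the highest of the diets and the MCR mean the lowest. Asb6, in the substrate-receptor family of ubiquitin ligases, had the tightest Control group of these (71.3% ± 1.19, SD, n = 5) and a weight-loss mean of 58.4% ± 6.26 (n = 15).

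Among separated regions with gains, in the 1st exon of Kcnj11, the pore subunit of the ATP-sensitive potassium channel (chr7:46099591-46099618, 4 CpGs, average coverage 44.3 reads), Control stood at 29.98, 20.1, 38.9, 35.1 and 35.9%. The weight-loss libraries had 42.1, 56.4 and 82.8%, a difference of 30.96 points (SE 6.41, limma adjusted p = 0.0119), with Obese mouse 22 at 62.2%. The MCR mean of 80.3% was more than the ICR mean of 51.7%. A region of Cacna1g, a T-type calcium channel, stood at 52.3, 47.02, 57.1, 56.3 and 55.99% in Control and 61.1, 68.1 and 78.8% after weight loss (15.6 points, SE 2.88, limma adjusted p = 0.0119). Irx3, a homeobox factor studied in obesity, had 35.8, 29.6, 33.3, 32.7 and 34.8% in Control and 38.3, 44.1 and 61.2% after weight loss (13.5 points, SE 3.15, limma adjusted p = 0.0119). Galnt2, which starts O-linked glycosylation, differed by 23.02 points and Usp36, a deubiquitinase of the nucleolus, by 12.5. The count of separated regions moved with single libraries: it was 433 in all, 1542 without Control 10, 767 without Control 5 and 700 without ICR 112.

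**Figure D3:**
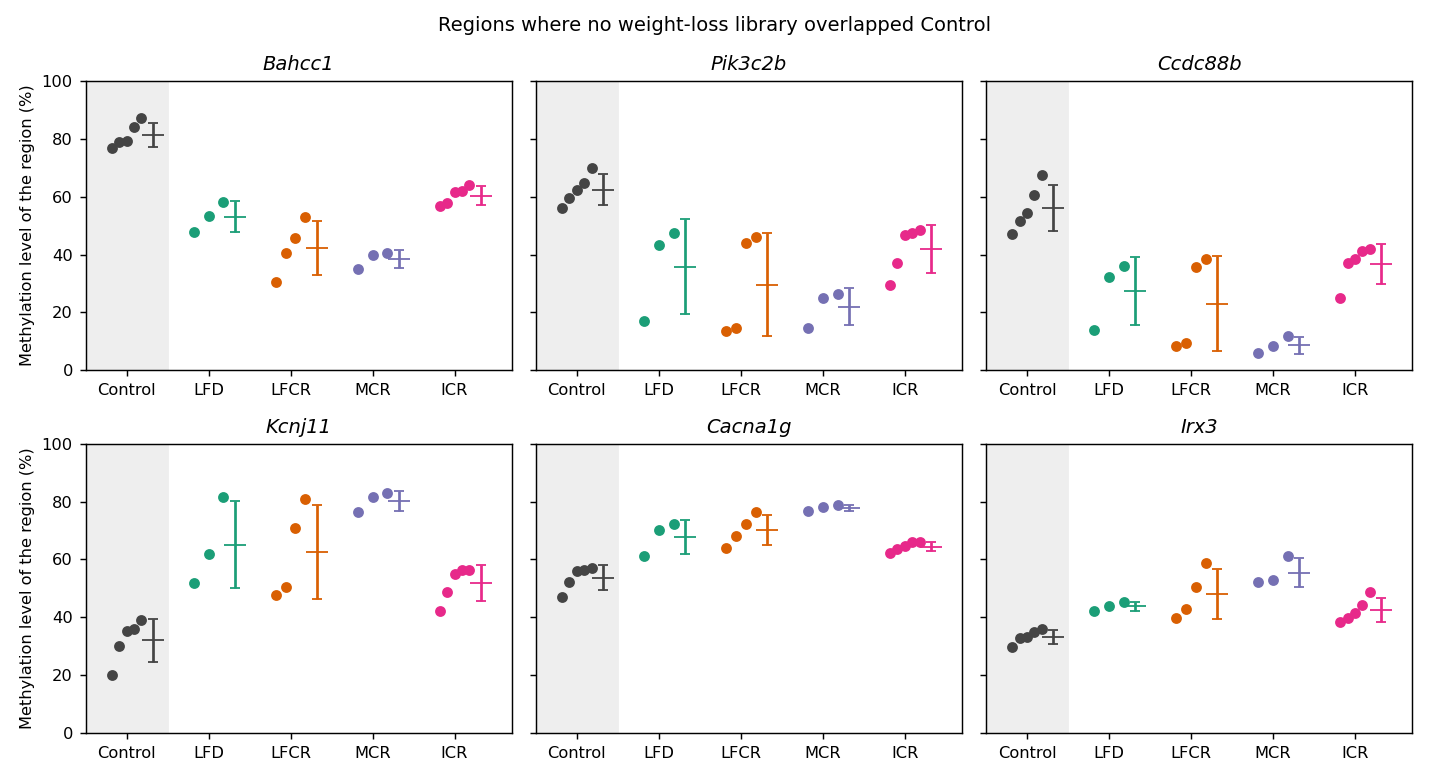
Methylation level in percent of 6 regions in each library (points), by group, with group mean and SD beside the points. In the upper regions (Bahcc1, Pik3c2b, Ccdc88b) every weight-loss point lies below every Control point, and in the lower ones (Kcnj11, Cacna1g, Irx3) above.

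The 10 common losses named here were those whose smallest diet difference was largest. In Sufu, an inhibitor of Hedgehog signalling (chr19:46484680-46484790, 4 CpGs, average coverage 35.05 reads), Control stood at 66.4, 77.98, 56.6, 50.4 and 52.3%. The weight-loss libraries had 1.02, 30.6 and 49.4% as lowest, median and highest, below all Control libraries, a difference of -38.3 points (SE 7.78, limma adjusted p = 0.0119). By diet it was -32.5 (LFD), -39.99 (LFCR), -58.02 (MCR) and -28.7 points (ICR), and the MCR mean of 2.73% was near 0. In Csnk1e, the casein kinase that phosphorylates the clock protein Per (chr15:79436565-79436596), Control had 69.9, 78.5, 59.5, 49.7 and 64.1% and the weight-loss libraries 5.93, 24.01 and 53.1%, with a small overlap. Its difference was -38.4 points (SE 7.55, limma adjusted p = 0.0119). Nek6, a mitotic kinase (chr2:38512992-38513132), fell from 51.8% ± 10.9 (SD, n = 5) to 18.2% ± 15.8 (SD, n = 15), and Zmynd8, a reader of modified histones (chr2:165887371-165887407), from 56.8% ± 12.98 (SD, n = 5) to 22.3% ± 15.9 (SD, n = 15) with no overlap.

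Lag3 encodes an inhibitory receptor of T cells. Its region (chr6:124904508-124904550, average coverage 124 reads) had 60.95, 72.8, 56.5, 47.4 and 66.1% in Control and 4.01, 25.7 and 52.4% after weight loss, a difference of -35.6 points (SE 6.81, limma adjusted p = 0.0119). Efhd2, a calcium-binding protein of immune cells (chr4:141867049-141867090), had 60.7, 73.3, 78.2, 54.8 and 71.5% in Control and 11.1, 33.5 and 63.6% in 14 weight-loss libraries. Synpo, an actin-associated protein, fell from 60.7% ± 10.7 (SD, n = 5) to 24.8% ± 16.2 (SD, n = 15) without overlap. In Cacna1a, a neuronal calcium channel, and in Fbxl19, an F-box protein that binds CpG-rich DNA, the differences were -32.8 and -29.5 points. A region to which the authors assign no gene, chr19:8928920-8928967, lies within Rom1 in RefSeq, a gene of photoreceptor discs, and differed by -31.02 points. In all 10 regions every diet mean was at least 25.1 points below Control, and limma gave each an adjusted p of 0.0119. Without Control 2 the 10 differences kept their sign.

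Common gains of largest size included 2 regions of Mir142hg, the host transcript of a microRNA of blood cells. The first (chr11:87755884-87755969, 3 CpGs, average coverage 40.9 reads) had 39.9, 12.9, 30.4, 37.8 and 33.8% in Control. The weight-loss libraries had 38.3, 71.9 and 94.2%, a difference of 36.2 points (SE 7.69, limma adjusted p = 0.0119), and only LFCR mouse 72 fell inside the Control range. The second, 6 CpGs at chr11:87757156-87757235 with an average coverage of 179 reads, had 23.3, 19.2, 39.9, 43.4 and 26.02% in Control and 39.3, 58.5 and 81.3% after weight loss. By diet the first region gained 31.01 (LFD), 38.98 (LFCR), 50.3 (MCR) and 28.5 points (ICR). In the 1st exon of Arhgap30, a GTPase-activating protein of leukocytes (chr1:171389568-171389599), the levels were 17.2, 32, 49.1 and 22.5% in Control mice 2, 5, 10 and 13, and 33.1, 58.4 and 83.5% after weight loss. Its groups overlapped and the difference was 29.8 points (SE 9.58, limma adjusted p = 0.0245), lost without Control 13 (27.2 points, adjusted p = 0.0719) and, like every call, without Control 2 (25.4 points, adjusted p = 0.101).

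Ptprs, a receptor phosphatase (chr17:56443747-56443799), had 24.1, 11.2, 33.1, 32.97 and 27.6% in Control and 34.6, 50.9 and 73.5% in 13 weight-loss libraries, without overlap. Its difference of 26.9 points (SE 5.23, limma adjusted p = 0.0119) was spread over the diets at 22.1 (LFD), 31.7 (LFCR), 28.1 (MCR) and 25.1 points (ICR). Near Sp9, a developmental transcription factor (chr2:73281354-73281430), the 4 diets were nearly level, at 23.04 (LFD), 21.5 (LFCR), 25.6 (MCR) and 21.1 points (ICR). MCR had the largest mean difference in most regions common to the diets. Even so, the limma F test among the 4 diets, given below, called only 11 of 18742 regions. Man1c1, a Golgi mannosidase, rose from 31.1% ± 15.02 (SD, n = 5) to 62.4% ± 16.5 (SD, n = 14) and Asphd2 from 29.8% ± 11.2 (SD, n = 5) to 58.7% ± 15.2 (SD, n = 15) over 9 CpGs of its 3′UTR. A region shared by 1700084C06Rik and Tyk2, the latter a Janus kinase of interferon signalling, differed by 26.1 points, one of Gm20388 and Gse1 by 27.01 and one of 4930519G04Rik by 28.3. Under quantile normalization all 10 losses and all 10 gains kept their direction, and of all 42 regions named 2 lost their call.

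**Figure D4:**
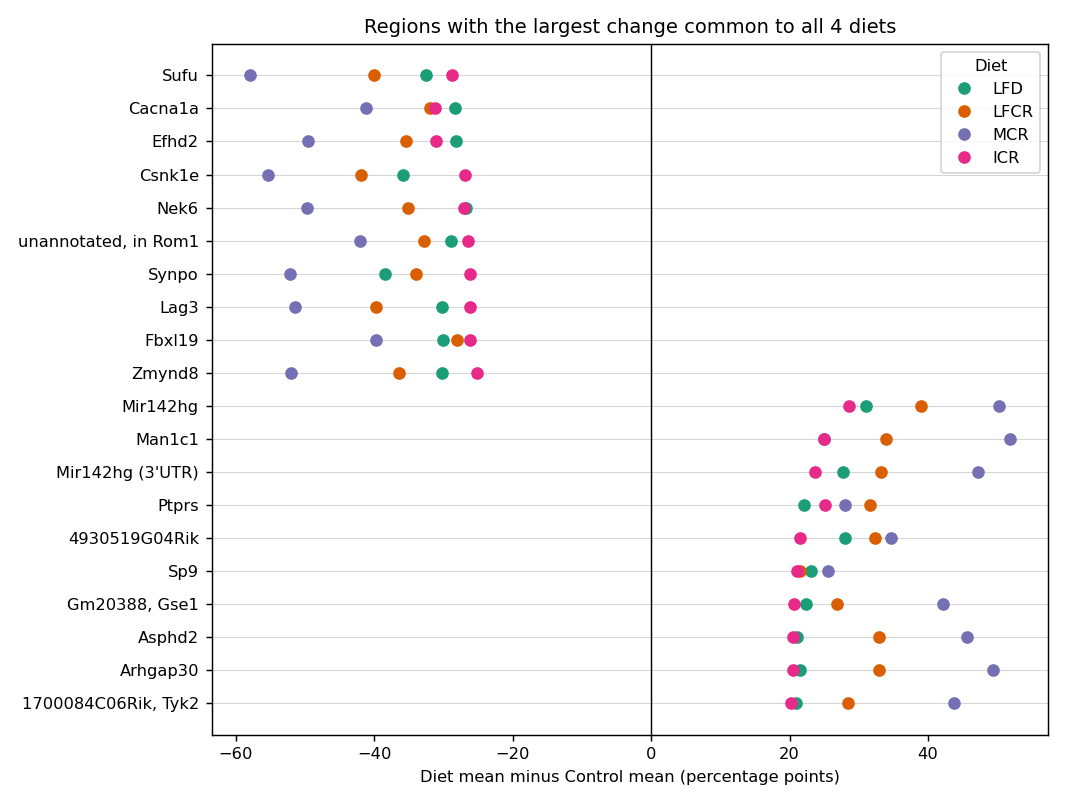
Mean of each diet minus the Control mean, in percentage points, at the 10 regions with the largest loss and the 10 with the largest gain common to the diets. MCR (purple) is farthest from 0 except at Ptprs, and at Sp9 the 4 diets lie between 21.1 and 25.6 points.

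Single CpGs by the same rule reached larger values. A CpG in Csnk1e (chr15:79436565) went from 74.6% ± 9.43 (SD, n = 5) to 25.3% ± 17.8 (SD, n = 15) with no overlap. One in Tns1, a focal adhesion protein (chr1:73962735), went from 74.6% ± 14.6 (SD, n = 4) to 32.9% ± 15.9 (SD, n = 15), and one in Sufu (chr19:46484748) from 62.3% ± 13.6 (SD, n = 5) to 19.3% ± 15.4 (SD, n = 15). Gains were largest at Klhl42, a ubiquitin ligase adaptor (40.5 points), at Sdk2, a cell adhesion protein (40.4 points), and at Tap1, the peptide transporter of antigen presentation (38.1 points, from 24.98% ± 7.42 (SD, n = 5) to 63.1% ± 16.2 (SD, n = 14)). Limma adjusted p lay between 0.0179 and 0.0230 for these 6 CpGs.

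Of the 5 promoters named for a common loss, that of Agap2 held the most CpGs, in a CpG island (chr10:127079354-127080701, 68 CpGs, 1st exon, average coverage 149.5 reads). Agap2 encodes a GTPase that enhances PI3-kinase and Akt signalling. Control had 63.3, 71.6, 52.8, 48.6 and 57.4% and the weight-loss libraries 8.50, 33.4 and 48.5%, so the groups touched without overlapping. The difference was -30.5 points (SE 6.98, limma adjusted p = 0.0190), by diet -25.6 (LFD), -32.9 (LFCR), -48.2 (MCR) and -20.8 points (ICR). The same 6 CpGs are annotated to Nrip2, a nuclear receptor interactor, and to Gm44596 (chr6:128399898-128400016): 48.97, 50.3, 70.3 and 50.5% in Control mice 2, 5, 10 and 13, against 1.15, 29.7 and 43% after weight loss, a difference of -29.7 points (SE 7.30, limma adjusted p = 0.0190). Control mouse 10 stood above the other 3 Control mice measured there. Gm27998 and Gm15684 differed by -26.8 and -28.6 points. Among gains, Rasal3, a Ras GTPase-activating protein of blood cells (chr17:32403066-32403130), had 21.2, 9.31, 15.8, 25.97 and 18.8% in Control and 14.7, 45.3 and 60.7% after weight loss, with overlap (23.3 points, SE 6.36, limma adjusted p = 0.0198). 1700001J04Rik did not overlap, with 64.6, 57.9, 63.8, 62.6 and 64.8% in Control and 67.8, 76.8 and 90% after weight loss (16.7 points, SE 3.49, limma adjusted p = 0.0190). Gm12977, which shares its region with Rps6ka1, rose by 23.96 points, and the Arhgap30 promoter is the region given above, called here at 0.0344 and lost without Control 1, 5 or 13 (29.8, 30.4 and 27.2 points, limma adjusted p = 0.0508, 0.0663 and 0.0984). Gm45745 differed by 17.2 points (SE 5.39, limma adjusted p = 0.0271), a call lost without Control 10 (16.2 points, adjusted p = 0.0561) and without Control 2 (10.1 points, adjusted p = 0.168). Alternatives were followed for 44 promoters, those of this paragraph and the called ones among the 3 members of smallest p per list. Of the 44, 24 lost their call under quantile normalization, 2 turned sign there, and 14 lost their call without MCR. Other called promoters given below, such as Irs2, Igfbp6, Vav1, Krt19, Hoxb5, Hoxd3 and Kcnq1, were not followed singly in the alternatives.

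Signalling by insulin and insulin-like growth factors, through PI3-kinase and Akt, controls growth and nutrient storage in fat. Of 36 genes listed for it, 10 had a measured promoter, 5 were lower and none higher (all promoters: 25.5% lower, 2.95% higher). The list median was -8.89 points against -2.11 over all promoters. Over all regions of the listed genes 19 of 55 were lower and 6 higher (all regions: 32% lower, 4.73% higher), with a median of -4.64 points against -4.94. In this and the other lists the median is a description and not a test. The Pik3cd promoter had 27.7, 28.2, 22.8 and 25.8% in Control mice 2, 5, 10 and 13 and 0.735, 11.7 and 22.7% after weight loss, with no overlap (-15.1 points, SE 3.67, limma adjusted p = 0.0190). Akt1, the central kinase, fell from 45.05 to 32.4% (-12.7 points, SE 2.90, limma adjusted p = 0.0190). Its Control libraries had 48.04, 49.97, 42.7, 41.7 and 42.8% and the weight-loss libraries 24.2, 31.99 and 45.2%. Irs2, which couples the receptor to PI3-kinase, fell from 58.8 to 47.1% (-11.7 points, SE 3.22, limma adjusted p = 0.0201), Igfbp6, a binding protein of Igf2, from 36.9 to 26.8% (-10.1 points, SE 3.03, limma adjusted p = 0.0237) and Pik3r2, a regulatory subunit, from 70.4 to 62.7% (-7.71 points, SE 1.90, limma adjusted p = 0.0190). Irs1 was at 52.9 and 41.02% and did not pass (adjusted p = 0.135), and Foxo3, the factor that Akt inhibits, was at 53.7 and 54.6% (adjusted p = 0.483).

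Genes of fat cells were read in 3 lists, beside the 25.5% of all promoters that were lower and the 2.95% that were higher. In the adipocyte list 1 of 6 measured promoters was lower, that of Klf15, a glucocorticoid-responsive regulator of fat metabolism, from 77.5 to 68.8% (-8.74 points, SE 3.05, limma adjusted p = 0.0394). The Klf15 call was lost without any 1 of 9 libraries (adjusted p up to 0.111), and its difference was 1.11 points, with the sign turned, with the library mean as covariate. Of 6 measured thermogenic promoters 1 was lower: Cpt1b, which carries fatty acids into mitochondria, had 73.8, 79.1, 70.8, 65.4 and 73.2% in Control and 34.9, 54.4 and 66.5% after weight loss (-21.3 points, SE 5.18, limma adjusted p = 0.0190). Fgf21, a fasting hormone, was at 88.7 and 76.4% (adjusted p = 0.0670), and Prdm16, a switch factor of brown fat, at 89.4 and 86.5% (adjusted p = 0.110). Of 5 lipid synthesis promoters 1 was lower, Acacb, the acetyl-CoA carboxylase that restrains fat oxidation, from 35.2 to 22.4% (-12.8 points, SE 3.55, limma adjusted p = 0.0201), while Fasn was at 23.5 and 22.7% and Srebf1 at 46.2 and 43.2% (adjusted p = 0.570 and 0.574). The promoter medians of the 3 lists were -2.94, -2.41 and -2.94 points. Over all regions of these genes, gene bodies included, 9 of 26 adipocyte regions were lower and 1 higher, 36 of 79 thermogenic regions were lower and 5 higher, 67 of the 79 being regions of Prdm16, and 17 of 44 lipid synthesis regions were lower and 1 higher. Among all tested regions 32% were lower and 4.73% higher.

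Immune genes went both ways. Of 20 leukocyte genes 5 had a measured promoter, 4 were higher and 1 lower, with a median of 16.3 points (all promoters: 2.95% higher, 25.5% lower). Over the 36 regions of the listed genes 10 were higher and 8 lower (all regions: 4.73% higher, 32% lower). The median of these 36 was 1.14 points against -4.94 over all regions. Some of the listed leukocyte genes had been noted in an earlier analysis of the same data, so their direction is not independent evidence. Coro1a, an actin-binding protein of leukocytes, had 29.01, 15.3, 23.98, 20.02 and 20.9% in Control and 24.99, 34.7 and 50.4% after weight loss (16.3 points, SE 4.40, limma adjusted p = 0.0195). Vav1, a Rac activator of blood cells, rose from 10.6 to 22.7% (12.1 points, SE 4.03, limma adjusted p = 0.0323). Dok3, an adaptor of B cells and macrophages, rose from 30.7 to 55.7% (24.97 points, SE 7.83, limma adjusted p = 0.0271), but with the library mean as covariate its difference was -1.55 points, and the call was lost without Control 1, 5 or 13 (25.5, 24.1 and 25.1 points, adjusted p = 0.0536, 0.0565 and 0.0570). Cd37, a tetraspanin of B cells, fell from 51.7 to 31.9% (-19.8 points, SE 5.21, limma adjusted p = 0.0194), against the other 4. The mean of the 4 promoters measured in all 20 libraries was 23.9 to 32.8% in Control and 27.5 to 47.2% in the diet libraries. Among 5 lymphocyte promoters Lat, the T cell receptor adaptor, rose from 32.6 to 51.8% (19.2 points, SE 6.69, limma adjusted p = 0.0390), a call lost without any 1 of 11 libraries and turned to -4.31 points with the library mean as covariate. Over the 3 lymphocyte promoters measured in all libraries the mean was 39.01 to 51.5% in Control and 43.7 to 56.9% in the diet libraries. Zap70, a kinase of the same receptor, fell from 45.7 to 36.6% (-9.11 points, SE 3.32, limma adjusted p = 0.0463), a call lost without any 1 of 14 libraries, and without its 1st exon CpGs the difference was 11.9 points. The only macrophage promoter was Cx3cr1, at 89.3 and 83.9% (limma adjusted p = 0.0275), lost without Control 1, 5 or 13 (-5.54, -5.43 and -5.51 points, adjusted p = 0.0536, 0.0502 and 0.0563). In the inflammation list 2 of 7 fell: Socs3, the brake on cytokine and leptin receptors, had 22.2, 27.02, 24.3, 22.1 and 21.3% in Control and 6.98, 13.3 and 19.5% after weight loss, with no overlap (-10.5 points, SE 1.85, limma adjusted p = 0.0173), and Irf7, an interferon factor, was at 60.5 and 55.4%. The Irf7 call was lost without Control 1 or 13 (-4.86 and -4.91 points, limma adjusted p = 0.0566 and 0.0570).

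Promoters of other cells of the pad were read beside the same shares of all promoters, 25.5% lower and 2.95% higher. In the luminal epithelial list 4 of 6 were lower and none higher: Cldn7, a tight junction protein, had 15.5, 14.7, 17.8 and 16.5% in Control mice 2, 5, 10 and 13 and 8.68, 11.2 and 14.4% after weight loss without overlap, Gata3 was at 15.95 and 11.05%, Krt19 at 10.7 and 7.58% and Krt7 at 66.1 and 52.01%. The Krt7 call was lost without any 1 of 8 libraries, and its difference was 1.79 points, with the sign turned, with the library mean as covariate. The Gata3 call was lost without Control 13 (-4.95 points, limma adjusted p = 0.0557). Over the 3 luminal promoters measured in all libraries the mean was 44.2 to 56.5% in Control and 31.6 to 49.8% in the diet libraries. In the fibroblast list 2 of 5 were lower. Pdgfrb, a growth factor receptor of stroma, fell from 15.4 to 9.63% (-5.75 points, SE 1.29, limma adjusted p = 0.0190), and Mxra8, a matrix adhesion protein noted in the earlier analysis, from 52.5 to 26.8% (-25.8 points, SE 6.80, limma adjusted p = 0.0194). The mean of the 2 fibroblast promoters measured in all libraries was 27.4 to 37.3% in Control and 6 to 29.4% in the diet libraries. Endothelial promoters split, with Nos3 and Esam lower (65.8 and 55.7%; 23.8 and 16.2%) and Eng higher (18.05 and 26.7%) of 8, and a mean over 3 of 32.7 to 39.7% in Control and 28.8 to 38.5% in the diet libraries. The Esam call was lost without Control 1 (-5.33 points, adjusted p = 0.0931), the Nos3 call without Control 1 or 13 (-9.70 and -9.78 points, adjusted p = 0.0565 and 0.0568) and the Eng call without any 1 of 8 libraries. In skeletal muscle genes Myog, the master regulator of muscle, rose without overlap, from 71.9, 63.5, 68.5, 73.1 and 67.1% in Control to 74.4, 84.5 and 90.5% as lowest, median and highest (13.6 points, SE 2.63, limma adjusted p = 0.0190). Aldoa, a glycolytic enzyme, fell from 23.8 to 12.7% (-11.1 points, SE 2.99, limma adjusted p = 0.0194). Ckm, the muscle creatine kinase, was at 65.8 and 61.5%, lower as tested but 2.72 points higher under quantile normalization, and the call was lost without Control 1, 5 or 13 (-4.26, -4.06 and -3.88 points, limma adjusted p = 0.0692, 0.0745 and 0.0908). The muscle mean over 5 promoters was 46.8 to 49.2% in Control and 42.6 to 49.3% in the diet libraries. Over all regions, 11 of 31 luminal, 18 of 23 fibroblast, 13 of 27 endothelial and 11 of 45 muscle regions were lower, and 2, 0, 1 and 3 were higher. The shares of all tested regions were 32% lower and 4.73% higher. What part the mix of cells had in these differences was not tested.

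**Figure D5:**
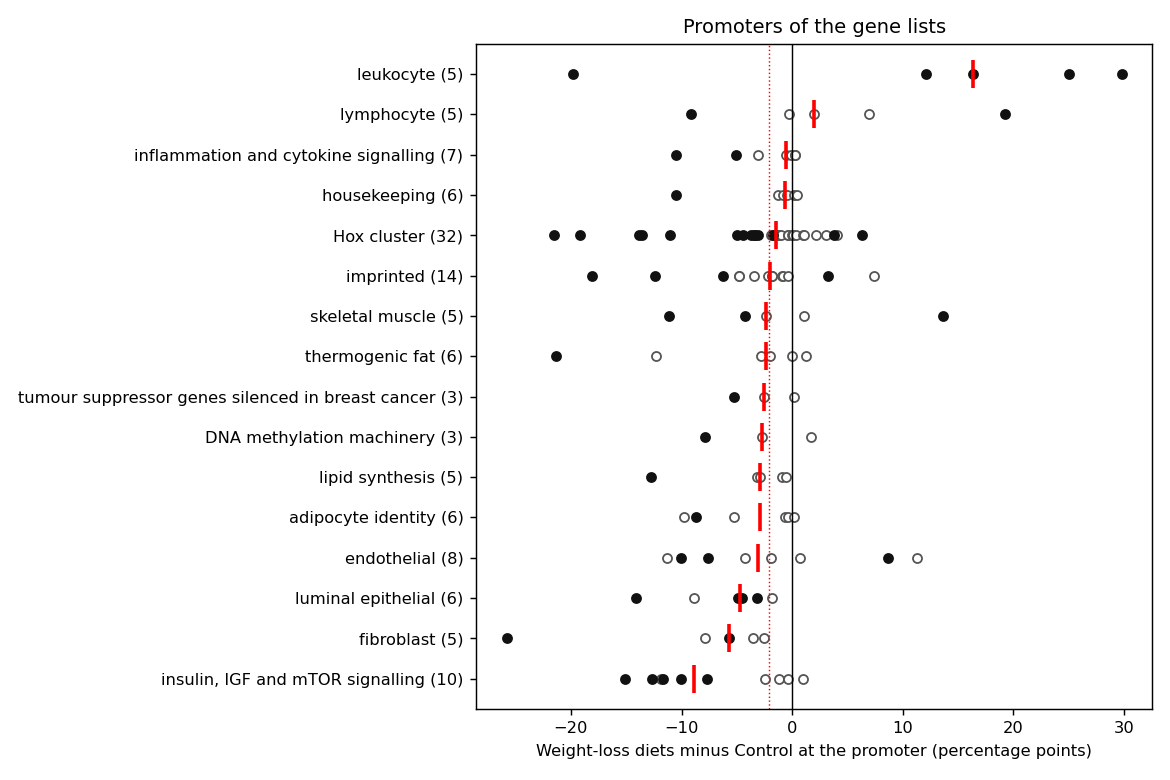
Weight-loss diets minus Control at the promoters of each gene list with at least 3 measured promoters, in percentage points (number measured in brackets). Filled points passed the test and open points did not. Red bars are list medians, and the dotted red line is the median of all promoters, -2.11. By its median the leukocyte list lies farthest to the right (16.3, with Cd37 alone to the left) and the insulin list farthest to the left (-8.89).

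Of 32 measured Hox promoters, body-plan regulators that keep regional patterns in adult tissue, 12 were lower and 2 higher, with a median of -1.50 points (all promoters: 25.5% lower, 2.95% higher). These 32 are not all separate measurements, since the annotation gives some CpGs to several Hox genes. The 81 CpGs of Hoxa3 hold all 53 of Hoxa5 and all 15 of Hoxa6, the 40 of Hoxc5 hold all those of Hoxc6, Hoxc8 and Hoxc9 (10, 5 and 8), and the 79 of Hoxd3 hold all 32 of Hoxd4. Hoxa5 had 57.05, 73.5, 59.1, 55.7 and 67.3% in Control and 22.3, 44.99 and 58.4% after weight loss over 53 CpGs (-21.5 points, SE 5.83, limma adjusted p = 0.0197). Hoxa3 fell from 58.5 to 39.2% (-19.2 points, SE 5.32, limma adjusted p = 0.0201) and Hoxc5, at a low level, from 10.1 to 6.79% (-3.33 points, SE 0.783, limma adjusted p = 0.0190). Hoxb5 and Hoxd3 were the 2 that rose, by 6.35 and 3.79 points. Over the 96 regions of the listed Hox genes 29 were lower and 14 higher, with a median of -2.39 points. All regions had 32% lower, 4.73% higher and a median of -4.94 points. Imprinted genes keep 1 parental copy methylated, and 3 of 14 measured promoters were lower and 1 higher (all promoters: 25.5% and 2.95%). Of the 68 regions of the imprinted list 13 were lower and 2 higher. H19, the maternally expressed RNA, had 77.7, 80.9, 77.4, 81.1 and 78.5% in Control and 54.99, 67.6 and 75.97% after weight loss, with no overlap (-12.4 points, SE 3.34, limma adjusted p = 0.0194). Igf2, its paternal neighbour, was at 38.95 and 32.7%, lower as tested but 0.749 points higher under quantile normalization. H13 fell from 77.1 to 59.03% (-18.1 points, SE 4.72, limma adjusted p = 0.0194) and Kcnq1 rose from 15.5 to 18.7% (3.25 points, SE 1.16, limma adjusted p = 0.0445). The 17 CpGs of Kcnq1 lay spread from chr7:143106880 to chr7:143295437. Gnas over 187 CpGs was at 44.97 and 41.5% (limma adjusted p = 0.0693).

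The shorter lists were read beside the same shares of all promoters, 25.5% lower and 2.95% higher. Dnmt3a, a de novo methyltransferase, fell from 24.1 to 16.2% (-7.93 points, SE 2.12, limma adjusted p = 0.0194), 1 of 3 measured genes of the methylation machinery. Its 6 CpGs lay spread from chr12:3806533 to chr12:3891810. Tet3, a demethylating enzyme, was at 48.97 and 46.2% (limma adjusted p = 0.0506). Neither of 2 circadian promoters (Bhlhe41 and Npas2) passed. Sfrp2, a Wnt antagonist silenced in breast cancer, fell from 10.2 to 4.93% (-5.23 points, SE 1.34, limma adjusted p = 0.0194), 1 of 3 in its list. Of 6 housekeeping promoters 1 was lower, Chmp2a at 38.7 and 28.2%, lost without Control 1 (-7.48 points, adjusted p = 0.113) and without Control 5 (-10.2 points, adjusted p = 0.0617), and Actb and Gapdh were at 0.810 and 0.375% and 0.210 and 0.359%. The only basal epithelial promoter, Oxtr, was at 21.5 and 19.9% (adjusted p = 0.711). Of the regions of these genes, 5 of 19 were lower in the methylation list and 7 of 18 in the circadian list. In the breast cancer list 10 of 28 were lower and 1 higher, in the housekeeping list 1 of 6 and in the basal list 1 of 5 lower. No other region of these lists was higher, and all tested regions had 32% lower and 4.73% higher.

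Whether the pooled diets differ from each other was tested in pairs of diets without Control, and by an F test. Of the 6 pairs, MCR and ICR differed most in mean methylation, 46.96 against 53.3%, a difference of 6.30 points (exact permutation p = 0.0179, the smallest 3 against 5 mice allow, adjusted p = 0.107). For the other pairs the adjusted p lay between 0.300 and 0.514, which does not show that those diets act alike. The F test among the 4 diets called 11 of 18742 regions (0.0587%), with 5417 at an unadjusted p under 0.05, and 2 of the 11 were also changed in all 4 diets. The fit behind this F test also held the Control libraries, which add to its estimate of spread. A region without a gene in the authors' table, chr17:24646650-24646717, inside Slc9a3r2 in RefSeq, had means of 81.97% in Control, 74.4% in LFD, 62.4% in LFCR, 37.7% in MCR and 70.7% in ICR (limma F test, adjusted p = 0.0344). In the 1st exon of Egln2, an oxygen-sensing hydroxylase, MCR was at 67.3% (n = 2) and Control, LFD, LFCR and ICR at 89.6, 88.04, 83.8 and 89.9% (adjusted p = 0.0423 by limma). In Brsk2, a kinase of neurons, MCR was likewise lowest at 71.4% (n = 2) against 92.2% in Control. In Cntfr, a cytokine receptor, LFCR and MCR were at 58.2 and 59.97%, and LFD and ICR at 71.2 and 67.2%. Map4k2, a kinase of stress signalling, had 1 MCR library at 43.2%. Leaving out 1 weight-loss library moved the count of this F test by over 1.5 times in all 15 cases. No Control library was left out for it. The count was 2866 without LFCR 72, 1094 without LFD 42 and 163 without LFCR 63. It was 0 without LFD 48, MCR 95, ICR 102 or ICR 112. There 3714 to 4935 regions had an unadjusted p under 0.05 by limma.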

How the data were processed

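Genomic DNA of 20 fat pads was analysed by RRBS. Per the submitters' processing notes the authors used Bismark and mm10; versions and filters are not given in the sources used here. Methylation was deposited as a fraction between 0 and 1 for each CpG in each library and is printed in percent. The deposited coverage signal is 1 average per CpG, in reads, over 21 libraries. Read counts per library were not used here, so no binomial intervals were computed, and limma on the level replaced the planned model of counts. The group values and comparison columns that the authors added were not used here.

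CpGs on chromosomes 1 to 19 with an average coverage of at least 10 reads and a value in at least 12 weight-loss and 4 Control libraries were kept. For a region or promoter, each library's deviations from the CpG means were averaged over its measured CpGs and added to the average of those means. This needed a share of 0.5 of the CpGs, and a level can lie slightly below 0. Limma (1 term, trend and robust off, two-sided) was fitted on all features, with Benjamini-Hochberg adjustment over all of them and a call under 0.05. A change common to the diets needs this call and each diet mean at least 5 points from Control in 1 direction, with 2 measured libraries per diet. Mean methylation was compared by exact permutation tests over libraries. The 4 diets were compared by limma's F test, in a fit that also held the Control libraries.

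Named are the 10 regions, 5 promoters and 3 CpGs each way with the largest smallest-diet difference, 3 members of smallest p per list (further members and the regions without overlap were chosen after their values were seen) and the 5 regions of smallest p among diets. The members and lists were chosen with earlier results of these data known. Alternatives were other coverage minimums, scales, normalizations, region definitions and leaving out libraries or diets. The fits were tested on simulated data. Software was R 4.3.3, limma 3.58.1, data.table (version 1.17.8), Python 3.11.15, numpy 2.4.6, pandas 2.3.3 and matplotlib 3.10.9.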

Additional observations from a re-analysis of the deposited data

Results flagged for a closer look

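A library far from the others of its group was looked for in 147 groups of 4 or 5 libraries. The search found 3, fewer than the 1 in 20 that chance gives, and the flags at Gm44596 and Nrip2 are the same CpGs under both names. In the Fbxl19 region ICR mouse 102 stood at 30.2% and the other ICR mice at 50.7 to 57.5%. At the promoter CpGs shared by Gm44596 and Nrip2 Control mouse 10 stood at 70.3%, and the other 3 Control mice measured at 49.0 to 50.5%.

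The 4 diets differed from each other in the F test at the unannotated region in Slc9a3r2 and at Map4k2 (adjusted p = 0.0344 each), at Egln2 (adjusted p = 0.0423), and at Brsk2 and Cntfr (adjusted p = 0.0444 each), by limma.

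In libraries outside the comparison, CpGs under 5% in Control had mean levels far above those of Control (1.11 to 1.37%): 50.6% in LFD 46, 49.9% in Obese 27 and 50.3% in both Obese 28 and Obese 40.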

How the results depend on the processing

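No paired analysis was possible because every library has its own mouse number and no number recurs between groups. Mean methylation kept its direction and its side of the threshold in every setting but 1: with LFD 46 included it was -3.95 points (exact permutation p = 0.131). Without 1 library it ran from -5.94 to -4.87 points. By context, leaving out 1 library gave -3.96 to -3.26 in islands, -5.58 to -4.49 in shores, -7.05 to -5.80 in shelves and -6.70 to -5.52 in the open sea.

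Counts were less stable, and causes were not tested. Leaving out 1 library gave 0 to 28078 CpGs, 0 to 7917 regions, 0 to 1009 promoters and 0 to 5720 regions common to the diets. Separated regions then numbered 431 to 1542, and leaving out 1 weight-loss library gave 0 to 2866 regions differing among diets. Each of the 0 counts of CpGs, regions, common regions and promoters came without Control 2. With LFD 46 included there were 11943 CpGs, 0 promoters (656 at an unadjusted p under 0.05 by limma) and 236 separated regions. The alternatives for separated regions and for single promoters without the 1st exon were added after seeing the data. Quantile normalization gave 7417 CpGs, 3316 regions, 2560 common regions and 213 promoters, and the library mean as covariate 0 of each, with 7864, 893 and 124 CpGs, regions and promoters at an unadjusted p under 0.05. With 5 group terms 38593 CpGs were called. Without MCR there were 2891 CpGs, 3807 regions and 361 promoters, without LFCR 9963 CpGs, without ICR 33618 CpGs and 1299 separated regions, and without LFD 680 separated regions. Stricter definitions gave 4338 regions (difference of 10 points), 3849 (5 CpGs), 484 promoters (10 CpGs), 249 (no 1st exon) and 1747 common regions (10 points in each diet). Signs turned at Igf2 (0.749 points) and Ckm (2.72) under quantile normalization, at Klf15 (1.11), Dok3 (-1.55), Krt7 (1.79) and Lat (-4.31) with the library mean as covariate, and at Zap70 (11.9) without the 1st exon. The pairs of diets were not compared with LFD 46 included.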

Other observations

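Some long genes held many regions lower in all 4 diets. These genes were chosen after the values were seen, and the share of all regions was 23.2%. Hspg2, the basement membrane protein perlecan, had 20 of 37 regions lower and none higher, Ephb2, a receptor of ephrins, 20 of 36 and 2, and Tns1, a focal adhesion protein, 15 of 27 and none. Nfic, a transcription factor, had 11 of 12 regions lower. In Prdm16, the brown fat factor whose promoter did not pass the test, 25 of 67 regions were lower and 5 higher, and in Gse1 31 of 85 were lower and 9 higher.

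The next genes were picked for their gains after the values were seen, and the share of all regions higher in all 4 diets was 3.46%. Prex1, a Rac activator, had 3 of 15 regions higher and none lower, Myo7a, an unconventional myosin, 3 of 9, Speg, a muscle kinase, 3 of 12, and Adamtsl5, a matrix protein, 3 of 5. Pik3cd had 4 of 13 regions higher and 2 lower, while its promoter was lower. Irf8, a factor of myeloid cells, had 3 of 8 higher and 1 lower. Of 6116 genes with a tested region, 2293 had one lower in all diets, 496 one higher and 254 both.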
